A study of Homo sapiens with 8 samples.

Results

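Baseline gene expression in DU145 cells was described from the 2 Mock arrays, which carried RNA of cells that received neither FGF19 nor TNFα. These were 2 of the 8 Affymetrix Human Gene 1.0 ST arrays of the series, chosen by their title as untreated biological replicates 1 and 2. The other 6 arrays held 2 replicates each of cells given FGF19 with heparin, cells given TNFα, and cells given FGF19 with heparin followed by TNFα. By the labels FGF19 was used at 50 ng/ml with 100 µg/ml heparin for 100 min, TNFα at 50 ng/ml for 90 min, and in the combined group FGF19 preceded TNFα by 10 min, while the study's methods give lower concentrations of heparin (50 µg/ml) and of TNFα (10 ng/ml). All 4 groups were moved to medium without serum the day before, so the Mock cells were serum-starved as well, and no array had heparin alone. The labels call the replicates biological and do not say that they came from separate dishes.

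DU145 is an established line of human prostate carcinoma cells, grown from a brain metastasis and known to grow without androgen. The luminal cells of the prostate are known for making the secreted kallikreins under the control of the androgen receptor, while epithelial cells in general are held together by cadherin junctions and carry a skeleton of keratin pairs. FGF19 is an endocrine ligand that acts through FGF receptors together with the co-receptor β-Klotho, and TNFα acts through its receptors on the IKK complex, which frees NFκB from its inhibitors. Baseline levels of these receptors and of their signalling proteins are given below together with the genes of cell identity.

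Each value was a PLIER signal, a linear estimate of brightness for a probeset, and 19460 of 33297 probesets carried 1 gene symbol, which gave 18417 genes when the brightest probeset stood for each gene. A background line was set on each array at the 95th percentile of 438 genes for olfactory, taste and vomeronasal receptors and hair-shaft proteins. These were chosen as genes used mainly in the sense organs and hair, and whether some are used in DU145 cells was not tested. OR51E1 and OR51E2, olfactory receptors counted among the prostate genes, were left out of this list. The line lay at 109 on Mock replicate 1 and 111 on Mock replicate 2. A gene was called above background when it passed the line on both arrays, below when it passed on neither, and split otherwise. Brightness depends on the probes as well as on the RNA, so a difference in signal between 2 genes is no measure of how many copies each had.

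Of the 18417 genes, 10314 (56.0%) were above background on both Mock arrays, 7733 were below and 370 were split. A signal of at least 2 times background was reached by 7612 genes and of at least 10 times by 1579 genes, while 2702 of the genes above background (26.2%) stayed under 2 times and so lay close to the line. The mean signal ran from 22.2 at the 5th percentile of genes through a median of 150 to 1492 at the 95th percentile. Of the 438 sensory and hair-shaft genes themselves, 19 were above the line, of which 14 were among the 67 hair-shaft genes and 3 among the 339 olfactory receptors. The median of the whole list was 29.0 on Mock replicate 1 and 29.7 on Mock replicate 2. With the line at the 99th percentile of the same list, which was 256 and 262 on the 2 arrays, 6743 genes were above it. With the line set on the olfactory receptors alone, 12694 genes were above it. Genes of known classes differed in that share, with 58.4% of 16899 protein-coding genes, 51.4% of 175 small nucleolar RNAs, 16.8% of 632 long non-coding RNAs and 11.0% of 173 microRNA genes above background. The array reads total RNA, so a signal at a microRNA gene need not be the mature microRNA.

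**Figure D1:**
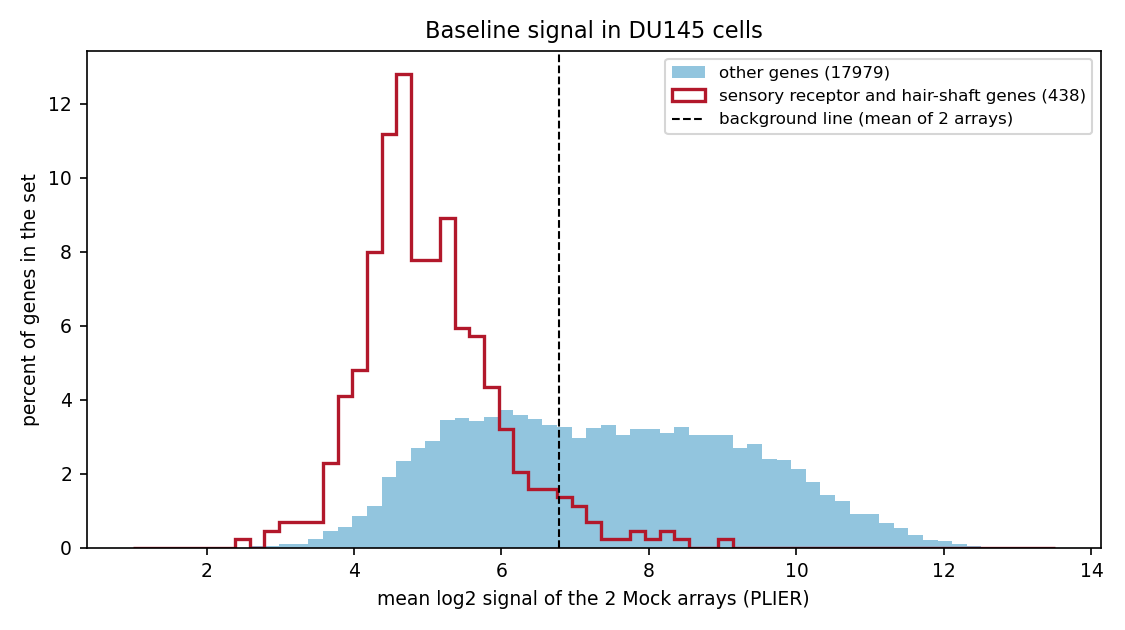
Share of genes (percent of each set, vertical axis) by mean log2 PLIER signal of the 2 Mock arrays (horizontal axis), for the 438 sensory receptor and hair-shaft genes (line) and all other genes (filled), with the background line dashed. Most of the sensory and hair-shaft genes lay to the left of the line, 19 of them above it on both arrays, and the other genes spread over both sides.

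The 2 Mock arrays were close to each other. Over all 33297 probesets the log2 signals had a Pearson correlation of 0.980 and a Spearman correlation of 0.993 across probesets, which are not independent replicates. The difference between the arrays had an SD of 0.46 on the log2 scale over all probesets, 95.8% of which lay within 1.5-fold. Among the 10314 genes above background the SD was 0.13 and 99.9% lay within 1.5-fold. In this set of genes the other pairs of replicates had an SD of 0.22 for FGF19, 0.11 for TNFα and 0.15 for FGF19 + TNFα. The spread fell with brightness, from an SD of 0.33 in the dimmest decile of genes to 0.11 in the brightest. A single gene above background differed by more than 2-fold, RNU5A-1, a spliceosomal small nuclear RNA, with 410 on Mock replicate 1 and 185 on Mock replicate 2. Next came the pseudogene LOC442132 with 326 and 172 and the long non-coding RNA LINC01783 with 212 and 121. TNFRSF12A, the receptor for the cytokine TWEAK, read 1039 and 683, and in the other direction UQCRBP1, a pseudogene of a respiratory chain subunit, read 386 and 590. Of the 10 genes that exceeded replicate 1 by the most on replicate 2, 5 were small nucleolar or Cajal body RNAs, which guide the modification of other RNAs (SNORA68, SCARNA10, SNORD57, SNORD60 and SNORD42A). The 10 with the largest excess on replicate 1 held none of this class and 7 protein-coding genes.

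**Figure D2:**
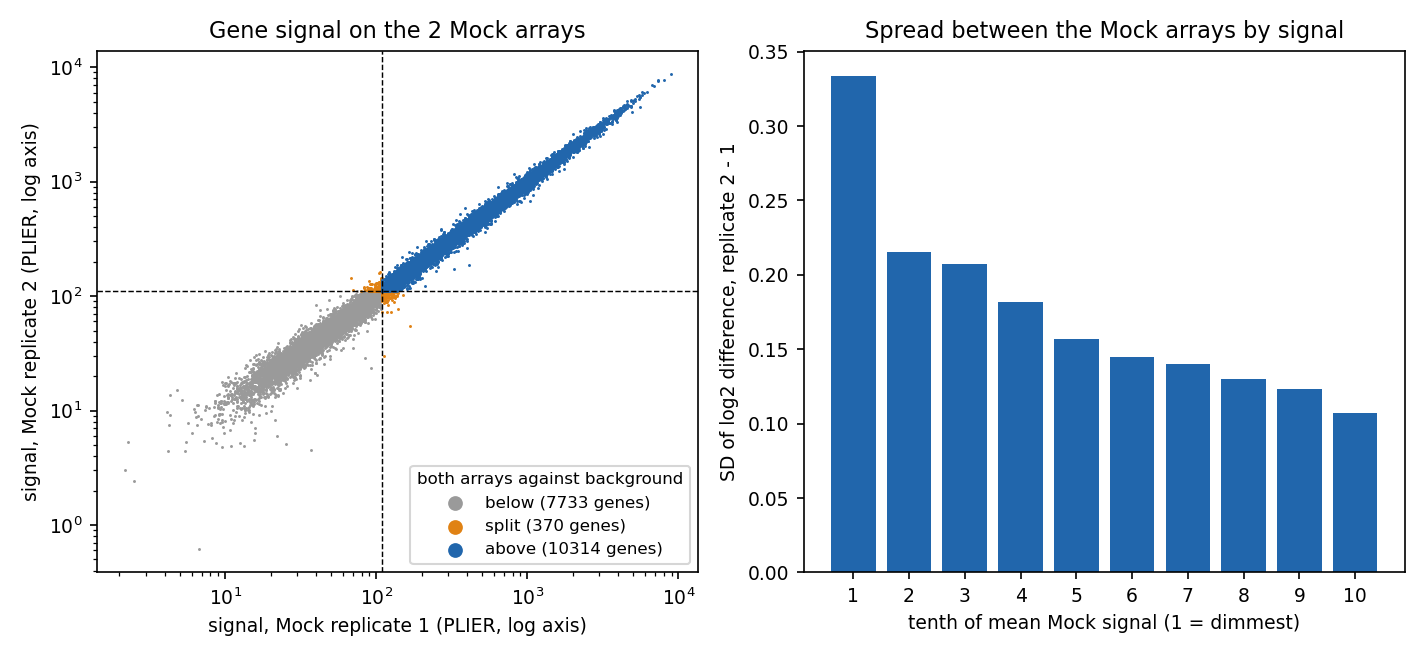
Left, PLIER signal of each of 18417 genes on Mock replicate 1 (horizontal) and Mock replicate 2 (vertical), both on log axes, coloured by whether the gene was above, split or below the dashed background lines; right, SD of the log2 difference between the 2 arrays by decile of mean signal. The points narrow towards the bright end, and the SD falls from 0.33 to 0.11.

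The brightest genes belonged to protein synthesis, glycolysis and protein folding. ENO1, the glycolytic enzyme enolase, had the highest signal of any gene, with 8925 on Mock replicate 1 and 8632 on Mock replicate 2. GAPDH, another glycolytic enzyme, followed with 8045 and 7771, and LDHA, which makes lactate, read 5524 and 5508. Of the 25 brightest genes, 6 code for ribosomal proteins (RPS3, RPL4, RPL8, RPL5, RPS2 and RPS25), and EEF1A1 and EEF1G are elongation factors. HSPA8, HSP90AB1, HSP90B1 and PDIA6 are chaperones or folding enzymes, of which HSPA8 read 5960 and 5902. ACTG1 and TUBB are parts of the cytoskeleton, TXNRD1 and NQO1 are reductases that protect against oxidants, and HMGCS1 is an early enzyme of cholesterol synthesis. S100A10, a partner of annexin A2 at the cell membrane, read 6865 and 6871. The nuclear long non-coding RNA MALAT1 read 5701 and 6096 on its brightest probeset, although a second probeset of MALAT1 was 11.3-fold dimmer. The names of 3 others rest on 1 of several probesets or on shared sequence. FAF2 had a second probeset 5.68-fold dimmer, PTMA had 6 probesets that spanned 36.4-fold, and RPL13AP5 is a pseudogene whose sequence resembles that of its parent ribosomal gene. Over all genes, 769 had several probesets with 1 symbol, and in 132 of these the brightest was more than 4-fold above the dimmest.

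Every measured gene of the lists for ribosomal proteins, glycolysis and the proteasome was above background. All 64 cytosolic ribosomal protein genes measured were above background, with a median signal of 2421, all 17 glycolysis genes with a median of 2817, and all 28 proteasome subunit genes with a median of 1895. SLC2A1, the glucose transporter GLUT1, read 2966 and 2716, and PSMB4, a subunit of the proteasome core, read 4569 and 4433. At the low end of these lists ALDOC, a brain form of aldolase, read 118 and 120, just over the line, and RPL3L, a muscle form of a ribosomal protein, read 140 and 148, the lowest of the ribosomal list. The 30 genes of DNA replication and mitosis were all above background too, at a median of 1247, in cells kept without serum. CCNB1, the cyclin that drives entry into mitosis, read 2689 and 2865, TOP2A, a topoisomerase of dividing cells, read 2691 and 2594, and TYMS, which makes thymidylate, read 2053 and 2052. The lowest were E2F1, a transcription factor that opens S phase, at 164 and 148, and CDT1, which licenses replication origins, at 174 and 159.

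The promoters of bright genes were rich in the dinucleotide CG, which in mammals marks the promoters of many genes used in all cells. RefSeq promoters of 250 bases before and 50 after the start (GRCh38.p14) were matched by Entrez gene identifier for 13769 of the 16899 protein-coding genes (81.5%). The number of CG relative to that expected from the C and G content had a median of 0.257 in the dimmest decile of genes and 0.882 in the brightest, and the share of promoters over 0.6 was 24.6% and 91.4%. Genes above background had a median of 0.854 and genes below it 0.434. Across genes the Spearman correlation of signal was 0.491 with this ratio and 0.301 with GC content, as a description with no test. TATAAA, the core of the TATA box, was searched on the gene's strand in the 50 bases before the start. It was found in 7.70% of promoters of the dimmest decile, 1.09% of the 8th decile and 2.76% of the brightest. The share was 3.65% over the 13769 matched genes and 2.92% over all 27305 promoters in the RefSeq table, which include genes not measured here. The following 200 bases before the start are shown for a pair of bright genes, a gene close above background and a gene below it, with every CG in capitals. ENO1 (chr1:8878687-8878886, minus strand) was the brightest gene and KRT8 (chr12:52926470-52926669, minus strand) a bright keratin of simple epithelia, while FGFR4 (chr5:177086715-177086914, plus strand, the first of 2 starts in the RefSeq table) lay 1.45 times above the line and KLK3 (chr19:50854715-50854914, plus strand) below it.
ENO1: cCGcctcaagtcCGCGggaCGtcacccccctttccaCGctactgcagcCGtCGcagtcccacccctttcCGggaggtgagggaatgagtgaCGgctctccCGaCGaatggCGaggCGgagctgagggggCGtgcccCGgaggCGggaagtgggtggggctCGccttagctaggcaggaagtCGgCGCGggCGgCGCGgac
KRT8: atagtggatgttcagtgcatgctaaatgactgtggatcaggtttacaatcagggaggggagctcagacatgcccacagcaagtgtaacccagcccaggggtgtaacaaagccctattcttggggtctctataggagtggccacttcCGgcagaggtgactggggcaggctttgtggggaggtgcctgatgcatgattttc
FGFR4: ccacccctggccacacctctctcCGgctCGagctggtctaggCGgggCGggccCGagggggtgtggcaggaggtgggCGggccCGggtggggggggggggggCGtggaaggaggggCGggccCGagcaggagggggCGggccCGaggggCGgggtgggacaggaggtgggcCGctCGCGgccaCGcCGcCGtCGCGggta
KLK3: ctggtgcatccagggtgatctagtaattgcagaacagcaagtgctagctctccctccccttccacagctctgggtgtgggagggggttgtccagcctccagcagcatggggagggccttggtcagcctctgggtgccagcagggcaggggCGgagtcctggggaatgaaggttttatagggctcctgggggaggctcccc
The ENO1 stretch held 23 CG and that of FGFR4 21, while those of KRT8 and KLK3 had 1 each. The stretch of the bright KRT8 thus had as few as that of the dim KLK3, and that of FGFR4 had many at a low signal. These stretches lie before starts in the RefSeq table, and whether DU145 cells used those starts was not tested. None of these 4 windows held TATAAA, which says only that these letters were not there.

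**Figure D3:**
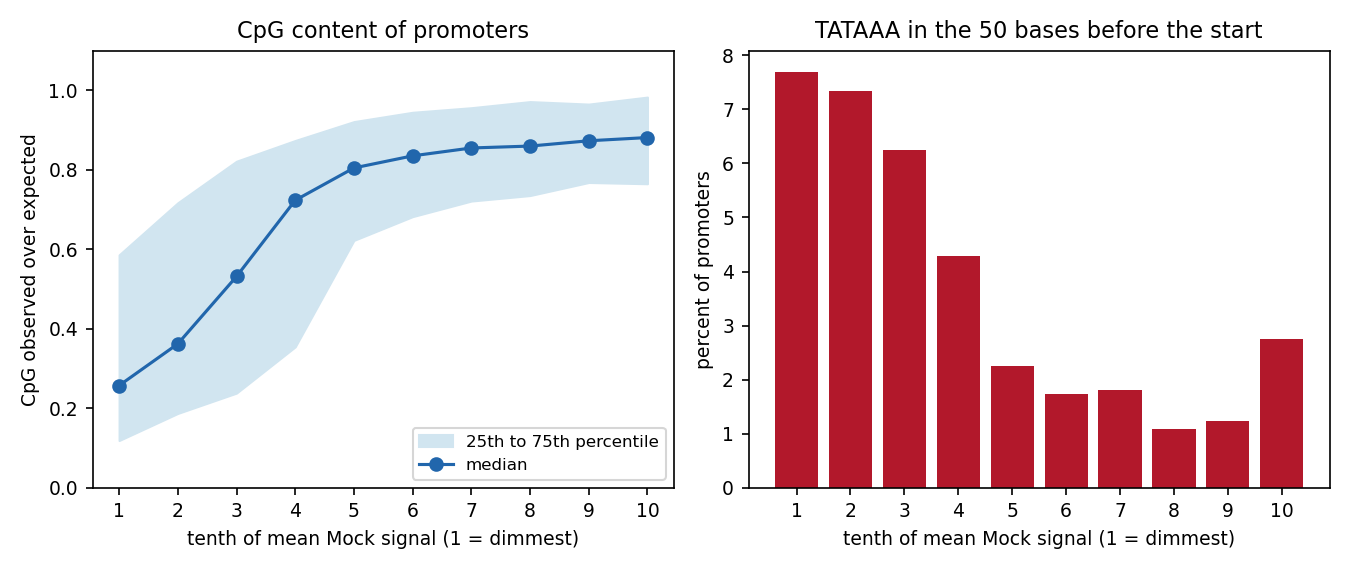
Promoters of 13769 protein-coding genes by decile of mean Mock signal (horizontal axes, 1 the dimmest). Left, CG dinucleotides observed over expected, as median (points) and 25th to 75th percentile (band); right, percent of promoters with TATAAA in the 50 bases before the start. The median CG ratio rises from 0.257 to 0.882, most of it over the first 5 deciles, while the share with TATAAA falls from 7.70% to 1.09% in the 8th decile and is 2.76% in the last.

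The keratins of simple epithelia were among the bright genes. KRT18 read 3618 on Mock replicate 1 and 3206 on Mock replicate 2, its partner KRT8 read 2590 and 2467, KRT7 read 2438 and 2507, and KRT19 read 1555 and 1478. KRT20, a keratin of the gut, was below background at 36.9 and 37.8. Of 48 keratin genes in all, 11 were above background. Of 23 genes of epithelial junctions and identity, 20 were above (87.0%, against 56.0% of all genes). DSG2, a cadherin of desmosomes, read 1776 and 1725, and TJP1, a tight junction scaffold, 1548 and 1574. EPCAM, an adhesion protein of epithelial cells, read 1346 and 1608. CLDN1, a tight junction strand protein, read 1445 and 1162, and SPINT2, an inhibitor of membrane proteases, read 1236 and 1209. CDH1, the E-cadherin of adherens junctions, read 581 and 551. The 3 members below background were GRHL2, RAB25 and EHF, all at 33.7 or less on both arrays, of which GRHL2 and EHF are transcription factors of epithelia.

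Genes of luminal prostate cells were mostly near the floor. Of 15 that were measured out of a list of 21, 4 were above background (26.7%, against 56.0% of all genes) and the other 11 below. The 6 others of the list were not analysed here. KLK3, the gene of prostate-specific antigen, read 53.8 and 46.0, and KLK2, its neighbour in the kallikrein family, read 58.1 and 59.6, the latter named after its values were seen. ACP3, prostatic acid phosphatase, read 26.9 and 26.1, and MSMB, an abundant protein of seminal fluid, read 17.3 and 18.0, the lowest of the list. OR51E2, an olfactory receptor known for expression in prostate, read 53.0 and 49.9. The members above background were FOXA1, a pioneer factor of luminal cells, at 294 and 333, STEAP2, a metalloreductase, at 211 and 208, GATA2 at 183 and 157, and HOXB13, a homeobox factor of the prostate, at 120 and 111. HOXB13 was just over the line on the Mock arrays and at or below it on all 6 treated arrays, and of the 4 only FOXA1 stayed above the stricter line. Set against its markers, the labelled cell type had 4 of 5 simple keratins and 20 of 23 epithelial genes above background. Under background were 11 of the 15 luminal prostate genes. Above it were also 6 of 10 basal and 6 of 16 mesenchymal markers.

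Genes of basal epithelium and of mesenchymal cells were present in part. Among 10 basal markers 6 were above background, a share (60%) close to the 56.0% of all genes. DST, a linker of hemidesmosomes, read 1536 and 1379, LAMB3, a laminin chain of the basement membrane, 1312 and 1243, and ITGA6 1148 and 1097. KRT14 read 158 and 151 and KRT5, with which it pairs, was below at 90.1 and 96.0. Of 16 mesenchymal markers 6 were above (37.5%), 9 below and 1 split. VIM, the intermediate filament vimentin, read 2134 and 2118, and AXL, a receptor tyrosine kinase, read 2086 and 2010, while the next, FOXC2, read 306 and 265. ZEB1, a repressor of E-cadherin, read 159 and 186. CDH2 (N-cadherin) was below the line at 55.8 and 54.9, and the lowest members were CDH11, PRRX1 and SPARC at 30.1 to 37.9. FN1, fibronectin, read 74.8 and 77.1 and SNAI1, a repressor of E-cadherin, 60.5 and 66.9 (CDH2 and SNAI1 were picked after their values were seen).

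Genes of other cell types were mostly below background. Among 13 neuroendocrine markers 10 were below, with CHGA (chromogranin A) at 27.1 or less on both arrays and SYP (synaptophysin) at 40.7 and 46.0, and the 3 above were ENO2, a neuronal enolase, at 363 and 359, INSM1, a zinc finger factor, at 358 and 328, and SOX2 at 232 and 227. Of 14 leukocyte markers 12 were below, PTPRC (CD45) being the lowest at 16.8 and 13.7, and the 2 above were ITGB2 at 390 and 391 and CD68 at 273 and 268. Endothelial genes were below in 7 of 9, fibroblast and smooth muscle genes in 12 of 13, neuron and glia genes in 7 of 11 with 1 split, and hepatocyte genes in 7 of 8. The summed signal of the leukocyte list was 1277 and 1226 on the 2 arrays, of the endothelial list 818 and 819, of the fibroblast and smooth muscle list 725 and 735, of the neuron and glia list 1155 and 1114, and of the hepatocyte list 992 and 1004. Members above background in these lists included SERPINA1, the protease inhibitor α1-antitrypsin, at 697 and 698, CDH5, an endothelial cadherin, at 333 and 324, and MBP, a protein of myelin, at 288 and 253, while VWF (von Willebrand factor of endothelium) read 39.7 and 42.2, DCN (decorin of fibroblasts) 14.2 and 18.9 and ALB (albumin of hepatocytes) 48.0 and 46.4.

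**Figure D4:**
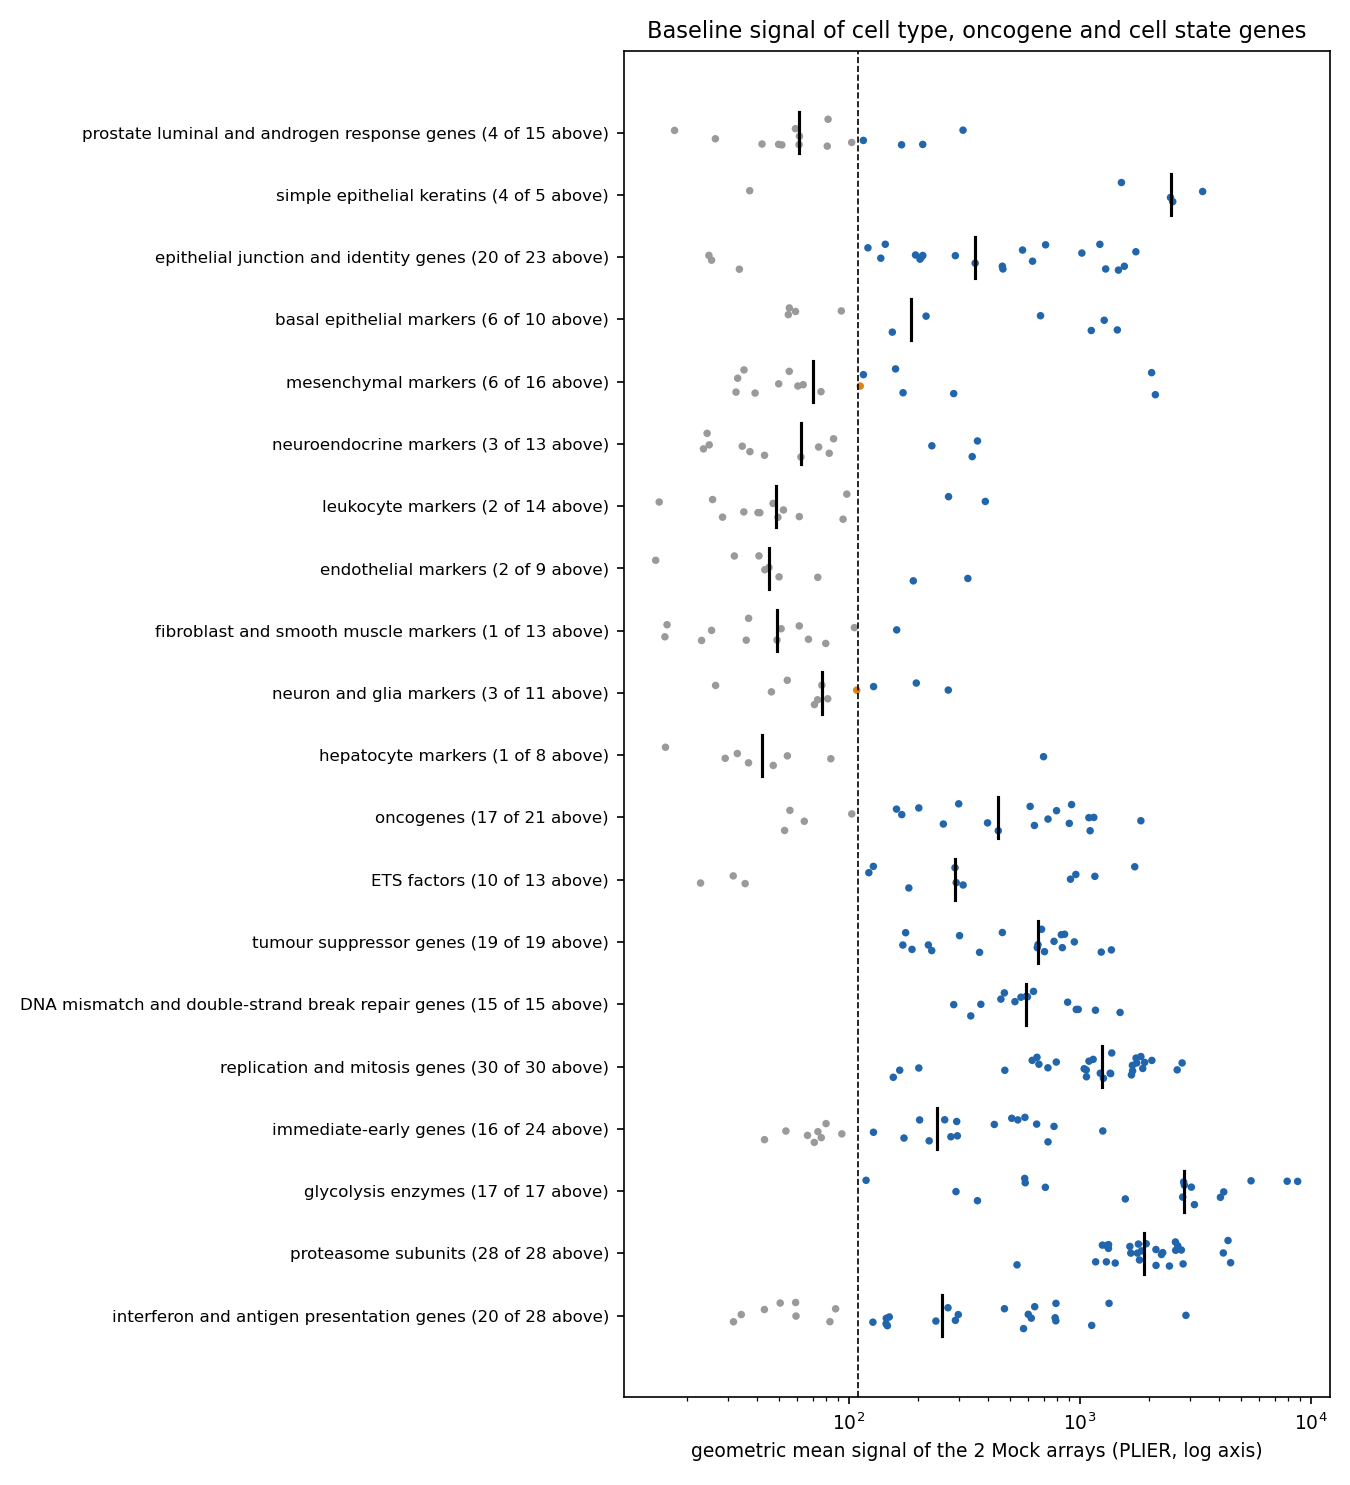
Geometric mean PLIER signal of the 2 Mock arrays (horizontal, log axis) for each measured member of 20 gene lists (rows), coloured blue when above background on both arrays, orange when split and grey when below; the short bar is the list's median and the dashed line the background. The medians of the simple keratin, glycolysis, proteasome and replication lists lie to the right of the line, with KRT20 to the left of it, and the luminal prostate, neuroendocrine and other cell type lists have their medians to the left of it.

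Genes of the cell cycle stood at both ends of the oncogenes above background. Of 21 measured, 17 were above background (81.0%, against 56.0% of all genes). AURKA, a mitotic kinase, read 1843 and 1837, and SKP2, part of a ubiquitin ligase for cell cycle inhibitors, 1190 and 1113. CCND1 (cyclin D1) read 1154 and 1067, and EZH2, a histone methyltransferase, 1071 and 1122. YAP1, a co-activator of the Hippo pathway, read 958 and 888, and MYC read 738 and 720. The lowest of those above were CCND2 at 235 and 282, CCNE1 at 202 and 201, CDK6 at 180 and 160 and CCND3 at 170 and 153. They are cell cycle genes too and were named after their values were seen. The 4 below were SRC at 101 and 105, MYCL, BCL2, an inhibitor of apoptosis, at 56.3 and 55.2, and MYCN at 54.2 and 51.5, of which SRC lay close under the line and was named after its value was seen. Among 13 ETS factors, several of which are joined to other genes in prostate carcinoma, ERG read 32.2 and 31.2 and ETV1 read 22.7 and 23.0, both below background, as was FLI1 at 32.5 and 39.2. The brightest were ETS2 at 1800 and 1665 and ETS1 at 1162 and 1165.

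All 19 tumour suppressor genes measured and all 15 genes of mismatch and double-strand break repair measured were above background. GSTP1, a glutathione transferase whose promoter is often methylated in prostate cancer, read 1424 and 1321, and CDKN2A, which codes for inhibitors of CDK4 and of MDM2, read 1305 and 1178. RB1, the retinoblastoma gene, read 661 and 659. At the low end were CDKN1A, the inhibitor p21, at 196 and 181, RASSF1 at 175 and 178, and STK11, the kinase LKB1, at 166 and 178. These signals do not tell a normal from a mutant transcript. Of the repair genes CHEK1, a checkpoint kinase, was brightest at 1418 and 1577 and MLH3 lowest at 298 and 273.

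Apart from FGFR1, signals of the FGF receptors and co-receptors lay near or under the background line, and signals give no order of their RNA amounts. FGFR1 had the highest signal, at 270 on Mock replicate 1 and 280 on Mock replicate 2, which is 2.51 times background. FGFR4, the receptor for which FGF19 has the strongest preference, read 168 and 151, or 1.45 times background, and FGFRL1, which lacks a kinase domain, read 133 and 124. KLB (β-Klotho) was split, with 113 above the line of replicate 1 and 101 below that of replicate 2. KL (α-Klotho) read 96.4 and 86.8, FGFR2 40.6 and 50.0 and FGFR3 40.2 and 49.9, all below background. Only FGFR1 passed the stricter line. Of the 22 FGF ligands 8 were above background (36.4%, against 56.0% of all genes). FGF2 was the brightest at 765 and 759 and FGF11, which stays in the cell, next at 403 and 397. FGF19 itself read 45.5 and 42.7, below the line, a value given although the rule for naming genes did not select it.

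Among 49 other receptor tyrosine kinases 17 were above background (34.7%, against 56.0% of all genes), 30 below and 2 split. After AXL the brightest were MET, the receptor for hepatocyte growth factor, at 1378 and 1289, RYK, a receptor for Wnt proteins, at 1287 and 1235, EPHA2, a receptor for ephrins, at 907 and 822, and IGF1R at 799 and 776. EGFR read 751 and 705 and ERBB2 read 322 and 338. KIT, the receptor for stem cell factor, was lowest at 20.6 and 14.5, after EPHA7 and PDGFRA. The ligand of MET, HGF, read 27.1 and 31.9, below the line while its receptor was above it; it was named after its value was seen.

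The main TNFα receptor and nearly all measured genes of a list of TNF receptor adaptors and NFκB proteins were above background. Of 27 TNF receptor superfamily genes 17 were above (63.0%, against 56.0% of all genes). TNFRSF10B, a death receptor for TRAIL, read 1273 and 1191, and TNFRSF1A, the main receptor for TNFα on most cells, read 1088 and 1070. TNFRSF1B, the second TNFα receptor, was close to the line at 132 and 120. Of the 21 adaptors and NFκB proteins measured, out of a list of 25, 20 were above background (95.2%). The list also holds death receptor adaptors and inhibitors of NFκB, and its unmeasured members were not analysed here. FADD, the adaptor of death receptors, read 1867 and 1866, NFKBIA, the inhibitor IκBα, read 1800 and 1654, and IKBKB, the kinase IKKβ, read 366 and 368. The 1 below was IKBKG, the regulatory subunit of the IKK complex, at 75.1 and 68.4. A signal under the line does not show that its RNA was absent. TNF itself read 44.5 and 38.6, below background, and was named after its value was seen.

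Receptors for steroids and other small ligands were mostly dim. Of 39 nuclear receptors 15 were above background (38.5%, against 56.0% of all genes). NR3C1, the glucocorticoid receptor, stood at the top with 1327 and 1245. It was followed by NR2C1 at 485 and 526 and NR1D2, a repressor of the circadian clock, at 530 and 474. The estrogen and progesterone receptors ESR1, ESR2 and PGR were below the line, at 27.0 to 61.5 (ESR1 and ESR2 were named after their values were seen). The lowest members by the rule were PGR, RXRG and ESRRG. Of 47 receptors for cytokines and the TGFβ family 22 were above (46.8%, against 56.0% of all genes), 23 below and 2 split. OSMR, the receptor for oncostatin M, read 2192 and 2121 and its partner IL6ST read 1409 and 1163, while IL2RA read 18.8 and 21.2. Of 25 integrins 11 were above (44%, against 56.0% of all genes). They were led by ITGB1, the shared β1 chain, at 3944 and 3862, ITGA3 at 1501 and 1529, ITGA6, and ITGAV at 1177 and 873.

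**Figure D5:**
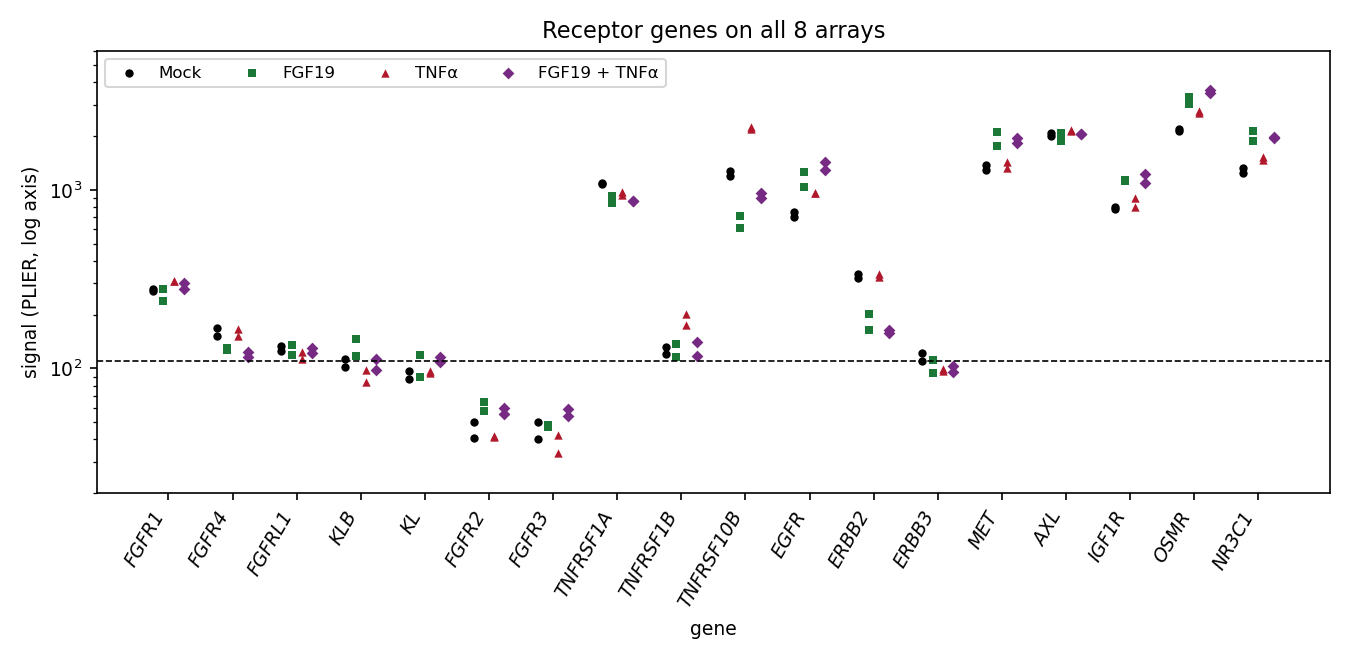
PLIER signal (vertical, log axis) of 18 receptor genes on each of the 8 arrays, with 2 points per group and the Mock background line dashed. Of the FGF receptors FGFR1 lies highest and FGFR2 and FGFR3 lie under the line, while TNFRSF1A, MET, AXL, OSMR and NR3C1 lie near or above 1000 on the Mock arrays.

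The cells carried signal for several secreted factors. Of 53 cytokines, chemokines and growth factors 26 were above background (49.1%, against 56.0% of all genes), 24 below and 3 split. DKK1, an inhibitor of Wnt signalling, read 1439 and 1355, EREG, a ligand of EGFR, read 1286 and 1203, and VEGFA read 1294 and 1175. CXCL8 (interleukin-8) read 444 and 484, IL6 read 112 and 124, just over the line, and CXCL1 was split at 101 and 115. The lowest were CXCL9, IL1A and IL33, the last at 12.7 and 15.2. PLAU, the urokinase that activates plasminogen, read 2987 and 2871, and its receptor PLAUR read 444 and 363, while MMP3, a secreted matrix protease, read 15.3 and 19.4. Of 28 genes of the interferon response and antigen presentation 20 were above (71.4%, against 56.0% of all genes). B2M, the light chain of class I molecules, read 2820 and 2946 and RSAD2, an antiviral gene, 32.7 and 30.8. Of 27 HOX genes 16 were above (59.3%, close to the 56.0% of all genes), led by HOXC12 at 615 and 513 and HOXD9 at 485 and 452. Of 24 immediate-early genes, which answer serum and stress within minutes, 16 were above (66.7%, against 56.0% of all genes). DUSP1, a phosphatase of MAP kinases, read 1242 and 1276. The lowest were FOSB at 41.6 and 45.0, EGR4 at 65.2 and 43.9 and NR4A3 at 63.5 and 69.4.

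How far this baseline held on the treated arrays was read from a limma fit over all 8 arrays, with Benjamini-Hochberg adjustment over all 33297 probesets and a call at an adjusted p under 0.05. TNFα against Mock gave 354 calls (1.06% of probesets), 322 higher (0.967%) and 32 lower with TNFα. FGF19 against Mock gave 10731 calls (32.2%), 6051 higher (18.2%) and 4680 lower (14.1%), and FGF19 + TNFα against Mock 11295 (33.9%). The 3 comparisons share the Mock arrays. The background line itself lay at 130 to 148 on the 4 arrays with FGF19 against 109 to 113 on the other 4. Heparin, FGF19 and any difference in how those arrays were handled cannot be told apart here. When either Mock array was left out, the TNFα count was 107 or 90, the FGF19 count 5761 or 5755 and the combined count 6436 or 6166. Leaving out 1 array of TNFα gave 176 or 127 TNFα calls, leaving out either FGF19 + TNFα array gave 216, and leaving out FGF19 + TNFα replicate 2 gave 5643 calls for that group.

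Most of the genes that were present at baseline stayed so. Of the 10314 genes above background in Mock, 8519 (82.6%) were above the line on all 6 treated arrays and 139 on none, and of the 7733 below in Mock 7374 (95.4%) were above on no treated array. Because the line was higher on the FGF19 arrays, a gene could cross it without a change in its own signal. The 15 genes below in Mock and above on all 6 treated arrays included NR4A2 and NR4A3, nuclear receptors that are immediate-early genes, and LOX, which cross-links collagen and was picked after its values were seen. NR4A3 read 63.5 and 69.4 in Mock, 260 and 269 with TNFα, 254 and 255 with FGF19, and 370 and 398 with both. The direction of these values was fixed by how the 15 genes were chosen, so they are given as a description.

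Genes of cell identity were compared between TNFα and Mock first. None of the 15 luminal prostate genes, the 5 simple keratins, the 23 epithelial, 16 mesenchymal or 13 neuroendocrine genes was called in limma, against 1.06% of all probesets, and with lists this short 0 calls is no result about these genes. At an unadjusted p under 0.05 the luminal list had 3 genes higher, the epithelial list 2 higher and 1 lower, and the other 3 lists 0. Their median log2 differences lay between -0.12 and 0.08, against -0.04 over all probesets. Of the 10 basal markers 2 were called, both higher, against 0.967% of all probesets, namely LAMB3 and CD44, a receptor for hyaluronan. LAMB3 rose from 1312 and 1243 to 2779 and 2729, by 1.11 ± 0.12 on the log2 scale (± is the SE, here and for every log2 difference; limma, adjusted p = 0.0154), a call that was lost when any of the arrays of Mock, TNFα or FGF19 + TNFα was left out, and that of CD44 was lost without any 1 of the 8. With FGF19, 3 of the 5 simple keratins were called lower in limma, against 14.1% of all probesets. KRT19 read 532 and 737 against 1555 and 1478 in Mock, a log2 difference of -1.28 ± 0.15 (adjusted p = 0.0033), and KRT8 read 1088 and 1372 against 2590 and 2467, a difference of -1.05 ± 0.14 (adjusted p = 0.00385). KRT18, at 2644 and 3139, was not called (-0.24 ± 0.11, adjusted p = 0.162). In the same comparison 16 of 17 glycolysis genes, 18 of 28 proteasome genes and 33 of 64 ribosomal protein genes were lower and 0 were higher (0, 1 and 1 at an unadjusted p under 0.05 in limma), with median log2 differences of -0.59, -0.46 and -0.33 against 0.08 over all probesets, of which 14.1% were called lower. Of the 15 repair genes 9 were higher and 1 lower, against 18.2% and 14.1% of all probesets. As the bright lists moved down together on arrays whose background was higher, that shift moved with these calls, and its part in them was not tested.

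The FGF receptors and co-receptors were followed on the treated arrays too. Of the 7 genes 0 were called with TNFα in limma, against 1.06% of all probesets, and 0 had an unadjusted p under 0.05, so a list this short gives no result for TNFα. FGFR1 read 239 and 278 with FGF19 and 278 and 299 with both, within or close to the Mock values of 270 and 280. FGFR4 read 129 and 126 with FGF19 and 123 and 115 with both, under the 168 and 151 of Mock, with log2 differences of -0.32 ± 0.10 (limma, adjusted p = 0.0523) and -0.42 ± 0.10 (adjusted p = 0.0197). The latter call was lost without Mock replicate 1 and without either array of FGF19 + TNFα. FGFR2, below background in all 4 groups, was called higher with FGF19, a call that was lost with either other normalization and without any 1 array except Mock replicate 2. Of the other receptor tyrosine kinases 1 was called with TNFα, the split gene STYK1, whose call was lost without any 1 array, and with FGF19 11 were higher and 8 lower. These 19 of 49 genes are close to the 32.2% called over all probesets and so are no result about the list. EGFR read 1251 and 1038 with FGF19, a log2 difference of 0.65 ± 0.12 (limma, adjusted p = 0.00895), and ERBB2 163 and 202, a difference of -0.86 ± 0.12 (adjusted p = 0.00426). AXL, with 1885 and 2075 under FGF19 and 2141 and 2148 under TNFα, was not called.

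TNFα calls included immediate-early genes, NFκB proteins and secreted factors. Of the 21 adaptors and NFκB proteins 7 were higher and 0 lower (2 lower at an unadjusted p under 0.05), of 53 secreted factors 12 were higher, of 24 immediate-early genes 13 were higher and of 27 TNF receptor superfamily genes 4 were higher, against 0.967% of all probesets called higher. The median log2 difference was 0.33, 0.25, 0.89 and -0.03 in these lists. Calls in the TNF receptor superfamily were less firm. Those of TNFRSF10B and CD40 were lost with only the Mock and TNFα arrays fitted, and when any 1 of those arrays was left out. That of TNFRSF9 was lost without Mock replicate 1. TNFAIP3, the deubiquitinase A20, rose from 220 and 235 in Mock to 2393 and 2396, by 3.40 ± 0.10 on the log2 scale (limma, adjusted p = 0.000372). CCL20, a chemokine for lymphocytes, rose from a split baseline of 104 and 112 to 2932 and 3030.5, by 4.78 ± 0.08 (adjusted p = 3.6e-05), and CXCL8 from 444 and 484 to 2010 and 2093, by 2.15 ± 0.10 (adjusted p = 0.000886). CDKN1A rose from 196 and 181 to 703 and 661, by 1.86 ± 0.09 (adjusted p = 0.00118). IKBKB read 404 and 410, a difference of 0.15 ± 0.11 that was not called (adjusted p = 0.619), and TNFRSF1A read 974 and 934, a difference of -0.18 ± 0.09 (adjusted p = 0.466). MYC read 1090 and 1000 with TNFα, above both Mock arrays, with a difference of 0.52 ± 0.08 that missed the threshold (adjusted p = 0.0603).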

How the data were processed

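Total RNA of DU145 cells was hybridised to 8 Affymetrix Human Gene 1.0 ST arrays. Per the labels, the authors computed the deposited intensity values with Affymetrix Expression Console and PLIER; no source used here names versions or any scaling between arrays. The values were linear. Of 33297 probesets, 19460 carried 1 symbol, 1754 several and 12083 none, and 19429 of those with 1 symbol had it looked up again in RefSeq by Entrez gene identifier. Before log2, 240 zeros took the lowest positive value of their own array. Array medians were 101 and 102 in Mock. The number of arrays limits the precision, and p-values measure the spread between these samples, which may be technical.

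The comparisons used limma 3.58.1 in R 4.3.3 over all 8 arrays in 4 groups, with Benjamini-Hochberg adjustment at 0.05. The fit was tested on simulated data. Alternatives changed the normalization, the value added before log2, the filter, the groups fitted, the replicate block, the background line and the arrays used. Replicate numbers are not stated to pair the arrays, and the differences between replicates had correlations of -0.02 to 0.20 between all pairs of groups, or 0.00 to 0.23 over genes above background.

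Members and gene lists were chosen with earlier results of these data known. Genes named were the 25 brightest, the 5 highest and 3 lowest of each list, the 10 with the largest differences between Mock arrays in each direction, up to 3 called members of each list in each comparison, and a set of known prostate cancer and signalling genes; others are said to be picked after their values were seen. Promoters came from RefSeq GRCh38.p14.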

Additional observations from a re-analysis of the deposited data

How the results depend on the processing

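The count of genes above background in Mock was 6743 with the 99th percentile of the sensory and hair-shaft list and 16334 with its median, and it lay between 10197 and 12694 with olfactory receptors alone, the dimmest probeset, quantile normalization or a single Mock array, the latter giving 10491 and 10507. The correlation of the 2 Mock arrays lay between 0.978 and 0.996 in all alternatives. TNFα against Mock gave 562 calls with a filter on the dimmest 20 percent and 103 with only the 2 groups compared, and 90 to 284 when 1 array was left out. With 16 added before log2 the count was 519. FGF19 against Mock gave 7089 calls with only its 2 groups, and 5755 to 9817 when 1 array was left out; FGF19 + TNFα against Mock gave 5643 to 11995. With the replicate block the counts were 258, 10677 and 11288. An array left alone in its group was assumed to vary like the others. Of 191 calls on single list members, 56 were lost under at least 1 alternative, 11 of them with the replicate block, and 0 changed direction. With 2 arrays a group no outlier could be looked for, and signals near the background line have no firm order.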

Other observations

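For 2 large gene families outside the lists above, 163 of 329 solute carriers and 312 of 480 zinc finger genes named ZNF were above background in Mock, against 56.0% of all genes, a difference that was not tested. Of 23 cancer-testis antigens, genes normally silent outside the germ line, 18 were below and 5 above, with TEX15 at 396 and 372, PRAME at 328 and 333, BRDT at 184 and 209, MAGEA8 at 166 and 161, and PAGE5 at 118 and 130. The brightest microRNA gene was MIR21, at 731 and 642, followed by MIR193A at 504 and 459. After MALAT1 the brightest long non-coding RNA genes were ZFAS1 at 1928 and 2152 and SNHG29 at 1033 and 1086, both hosts of small nucleolar RNAs. The microRNA and long non-coding RNA genes were picked after their values were seen. Among the 8287 genes above background with a promoter, the difference between the Mock arrays had a Spearman correlation of -0.165 with promoter GC content, given as a description with no test.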
